A study of Mus musculus with 14 samples.

Results

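The genes described are 46 mouse nuclear receptors and the coactivators and corepressors that work with them in metabolism, chosen by symbol from the 24972 gene symbols of the deposited expression table. They comprise 38 receptors and 8 coregulators. The mRNA of each was followed in 14 RNA-seq libraries of a mouse hepatocellular carcinoma cell line in which ATP-citrate lyase (ACLY), acetyl-CoA synthetase 2 (ACSS2), both enzymes or neither had been removed. ACLY makes acetyl-CoA from citrate in the cytosol and nucleus, and ACSS2 makes it from acetate.

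Nuclear receptors are transcription factors whose activity is set by small lipophilic ligands such as fatty acids, oxysterols, bile acids, retinoids, thyroid hormone, glucocorticoids and vitamin D, although several members have no known physiological ligand. Many bind DNA as a pair with a retinoid X receptor (RXR). A bound receptor exchanges corepressors such as NCOR1 for coactivators of the NCOA family and the PGC-1 family, and in liver these proteins set the expression of genes for fatty acid oxidation, bile acid and sterol handling, gluconeogenesis and the circadian clock.

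WT denotes the Acly f/f line, made from a tumour that diethylnitrosamine had induced in a mouse, in which neither enzyme was removed. ACLY KO cells came from the same line by adenoviral Cre and a single-cell clonal population, and both groups carried an empty LentiCRISPR v2 vector as bulk populations. ACSS2 KO and DKO1 were made from the WT and the ACLY KO cells with a LentiCRISPR v2 guide to the first exon of Acss2, and each was a single-cell clone. All 4 groups were therefore selected with puromycin, and all were grown for 24 hours in DMEM with 10% calf serum. The libraries numbered 4 for WT, 4 for ACLY KO, 3 for ACSS2 KO (replicates 1, 2 and 4) and 3 for DKO1 (replicates 1, 3 and 4), and values are listed in order of replicate number. The labels do not say that replicates were separate cultures, so p-values measure the spread between these libraries, and genotype and clone cannot be told apart.

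Values are normalized counts, that is estimated reads per gene divided by the authors' normalization factors, and the totals were between 23565707 and 26946164 per library. A difference is a log2 fold change of (value + 1) with its standard error (SE), tested with limma over the 12711 genes whose mean was at least 10, and it is called at a Benjamini-Hochberg adjusted p under 0.05. Acly differed from WT by −2.59 (adjusted p = 9.8e-12) in ACLY KO and by −2.67 (adjusted p = 1.9e-11) in DKO1. Acss2 was at −0.84 (adjusted p = 2.8e-05) in ACSS2 KO and at −0.43 (adjusted p = 0.0044) in DKO1 against its ACLY KO parent, but at 1.16 (adjusted p = 3.6e-07) in DKO1 against WT. In the ACLY KO parent itself Acss2 was at 1.59 (adjusted p = 1.1e-08) against WT. An edit in the first exon need not change the amount of mRNA, so Acss2 reads do not check the ACSS2 labels. Of 12 hepatocyte markers 7 had a mean of at least 10, among them Krt8 and Krt18, while albumin (Alb) had group means between 11.3 and 134 normalized counts and Apoa1 and Serpina1a had means under 1. The hepatocyte markers summed to 48185 to 65121 in WT and 34795 to 37972.5 in ACLY KO. Their sum was 41091 to 44071 in ACSS2 KO and 26402 to 45389 in DKO1, so every knockout library was below every WT library. Of the 7, 2 were higher and 4 lower in DKO1 than in WT (median −0.56). All 5 cholangiocyte markers had a mean of at least 10, and their summed level ran from 35800 to 48432 in WT, 30250 to 32241 in ACLY KO, 40073 to 43264 in ACSS2 KO and 44275 to 70631 in DKO1. Spp1 made up most of that sum in DKO1, while 3 of the 5 were lower and 1 higher in DKO1 than in WT (median −0.69). Of 7 stellate cell and fibroblast markers 6 had a mean of at least 10. The 7 summed to 2118 to 2416 in WT, 3174 to 3563 in ACLY KO, 5236 to 6170 in ACSS2 KO and 1524 to 1685 in DKO1. Although this sum was lower in DKO1 than in WT, 3 of the 6 were higher and 1 lower there (median 0.77). In that comparison 56.0% of all genes tested were called. Dcn (2.404, adjusted p = 1.3e-07) and Acta2 (1.42, adjusted p = 4.1e-07) were higher in ACSS2 KO than in WT. Endothelial markers, 1 of 5 with a mean of at least 10, summed to 18.6 to 28.3 in WT, 77.1 to 92.3 in ACLY KO, 10.5 to 18.3 in ACSS2 KO and 42.1 to 51.2 in DKO1. Immune cell markers, 1 of 6 with such a mean, summed to at most 132 in any library. The part of these marker levels in the results below was not tested.

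Promoter sequence is shown for Ppargc1a, which was among the members with higher mRNA in each single knockout than in WT. It is also shown for the paired clock repressors Nr1d1 and Nr1d2, both higher in ACLY KO than in WT. RefSeq windows (GRCm38.p6) could be matched for 41 of the 46 members, and each sequence below is the 250 bases before a gene's start, read 5′ to 3′ on the minus strand. Capitals mark the core of a cAMP response element (TGACGT, or ACGTCA on the other strand) in Ppargc1a and the hexamer that a single nuclear receptor recognizes (AGGTCA) in Nr1d2.
Ppargc1a, chr5:51567726-51567975: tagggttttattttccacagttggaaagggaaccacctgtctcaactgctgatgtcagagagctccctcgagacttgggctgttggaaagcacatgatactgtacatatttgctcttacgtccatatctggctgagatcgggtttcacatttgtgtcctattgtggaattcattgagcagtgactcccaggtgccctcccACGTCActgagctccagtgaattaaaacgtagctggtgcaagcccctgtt
Nr1d1, chr11:98775378-98775627: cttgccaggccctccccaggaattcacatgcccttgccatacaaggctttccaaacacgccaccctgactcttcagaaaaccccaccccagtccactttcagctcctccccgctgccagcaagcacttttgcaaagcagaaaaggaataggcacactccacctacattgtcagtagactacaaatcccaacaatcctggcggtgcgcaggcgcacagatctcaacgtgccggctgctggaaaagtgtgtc
Nr1d2, chr14:18239107-18239356: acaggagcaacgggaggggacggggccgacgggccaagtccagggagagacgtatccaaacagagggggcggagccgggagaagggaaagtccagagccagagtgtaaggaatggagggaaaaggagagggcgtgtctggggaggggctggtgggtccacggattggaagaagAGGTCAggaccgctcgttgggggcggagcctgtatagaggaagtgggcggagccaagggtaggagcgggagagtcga
The match in Ppargc1a begins 50 bases before the start and that in Nr1d2 begins 77 bases before it, and the Nr1d1 window held neither motif nor the E-box CACGTG. The window of Vdr, also higher in each single knockout than in WT, was searched too. It held none of these motifs, and its sequence is not shown. On either strand, TGACGT was in 6.47% of all 32851 windows of this length and in 3 of the 63 windows of members (Ppargc1a, Nr2c1 and Nr4a3). AGGTCA was in 14.02% of all windows and in 11 of the 63, from 10 members. CACGTG was in 6.02% of all windows and in 4 of the 63, from 4 members. These matches describe letters only.

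Most of the receptor repertoire was present in these cells. Of the 46 members, 36 reached a mean of 10 normalized counts and were tested, 5 were low (mean from 1 to under 10), 4 had a mean under 1, and the retinoid receptor gene Rxrg was at 0 in all 14 libraries. Per kilobase of the longest annotated transcript, the highest mean levels were those of the corepressor Ncor1 (641), the coactivator Pprc1 (596), the glucocorticoid receptor Nr3c1 (546), Rxrb (459.7), the oxysterol receptor Nr1h2 (409) and the orphan receptor Nr2f6 (403). The lowest among the tested members were the estrogen-related receptor Esrrg (2.09) and the orphan receptor Nr4a3 (2.72) on the same scale.

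Several receptors of adult hepatocyte function were hardly detected. The xenobiotic receptors PXR (Nr1i2) and CAR (Nr1i3) ranged over the libraries from 0 to 1.59 and from 0 to 1.18 normalized counts, and were at 0 in 11 and 7 libraries. SHP (Nr0b2), the repressor of bile acid synthesis, was at 0 in 10 libraries, and the COUP-TF gene Nr2f1 in 11. LRH-1 (Nr5a2), a regulator of bile acid and sterol genes, ranged from 0 to 4.86, and the second thyroid hormone receptor Thrb from 0 to 7.72. LXRα (Nr1h3), the main hepatic oxysterol receptor, had means of 6.01 ± 1.01 in WT and 8.03 ± 2.33, 5.55 ± 1.71 and 10.2 ± 2.18 in ACLY KO, ACSS2 KO and DKO1 (SD). The estrogen receptor Esr1 had 7.71, 5.196, 4.28 and 13.4 normalized counts in WT and 1.13, 1.81, 0 and 0 in ACLY KO. In ACSS2 KO, Esr1 was at 16.6, 14.6 and 14.6, and in DKO1 it was at 1.96, 2.76 and 0. The 3 highest Esr1 values were those of ACSS2 KO. Esrrb, an estrogen-related receptor best known from embryonic cells, ranged from 0 to 5.19. None of these members was tested. Nr1i3 shares 74.9% of its exonic bases with Tomm40l on the other strand, and the sources used here do not say whether counting used the strand.

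**Figure D1:**
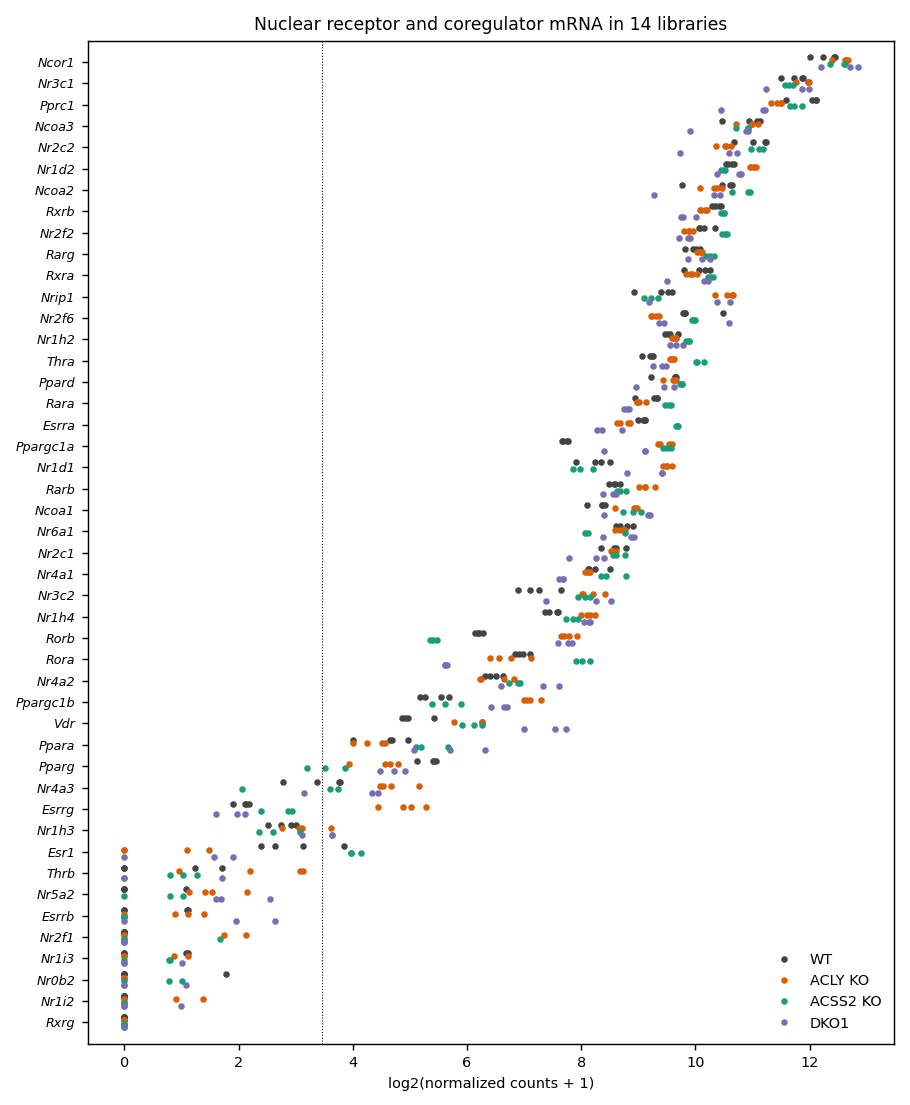
Level of each of the 46 members in the 14 libraries, on a log2(normalized counts + 1) scale on the horizontal axis, with 1 point per library coloured by group and members ordered by mean. The dotted line marks a mean of 10 normalized counts, above which 36 members were tested, and Rxrg sits at 0 in every library.

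The share of members called is set beside that of all genes in each comparison, and the difference between the shares was not tested. Against WT, 21 of the 36 tested members were called in ACLY KO, 14 as higher and 7 as lower, or 58.3% against 48.5% of all genes tested (23.8% higher, 24.7% lower). In ACSS2 KO vs WT there were 14, 12 higher and 2 lower, or 38.9% against 26.0% of all genes (15.1% higher, 11.0% lower). In DKO1 vs WT there were 22, 12 higher and 10 lower, or 61.1% against 56.0% (27.9% higher, 28.1% lower). Here the order of the shares turned when DKO1 replicate 1 (50% against 57.9%) or DKO1 replicate 3 (52.8% against 53.8%) was left out. The same happened without WT replicate 2 (55.6% against 57.9%). A correction for transcript length (61.1% against 64.6%) and the replicate number as a block (52.8% against 53.4%) turned it too. It also turned in ACLY KO vs WT without DKO1 replicate 4 (61.1% against 61.6%). A fit of only the groups compared turned it in DKO1 vs ACSS2 KO (37.1% against 38.5%). DKO1 vs ACLY KO gave 13, 3 higher and 10 lower, or 36.1% against 27.9% (14.3% higher, 13.6% lower). DKO1 vs ACSS2 KO gave 22, 7 higher and 15 lower, or 61.1% against 53.7% (25.9% higher, 27.8% lower). At a stricter limit, an absolute difference over 1.5 and an adjusted p under 0.01, these counts were 4, 2, 2, 1 and 2 members, where 8.80, 2.42, 9.84, 2.06 and 11.3% of all genes were called, a smaller share of members than of all genes in DKO1 vs WT and DKO1 vs ACSS2 KO. The median difference over the 36 members was 0.062 in ACLY KO vs WT, 0.23 in ACSS2 KO vs WT, −0.035 in DKO1 vs WT, −0.23 in DKO1 vs ACLY KO and −0.18 in DKO1 vs ACSS2 KO, while the medians over all genes tested lay between −0.0067 and 0.0058. Esrrg passed the filter only through ACLY KO and so had to differ between groups. Without it the 5 counts were 20, 14, 22, 12 and 21 of 35 members, and at the stricter limit 3, 2, 2, 0 and 2. The share of members at the stricter limit was then smaller than that of all genes in every comparison but ACSS2 KO vs WT. Among the genes of the lists below, Mylip and Zbtb16 passed only through ACSS2 KO, Hsd11b1 only through ACLY KO and Cyp27b1 only through DKO1. These genes too had to differ between groups. In bulk RNA, fewer cells of a type and less RNA per cell cannot be told apart.

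**Figure D2:**
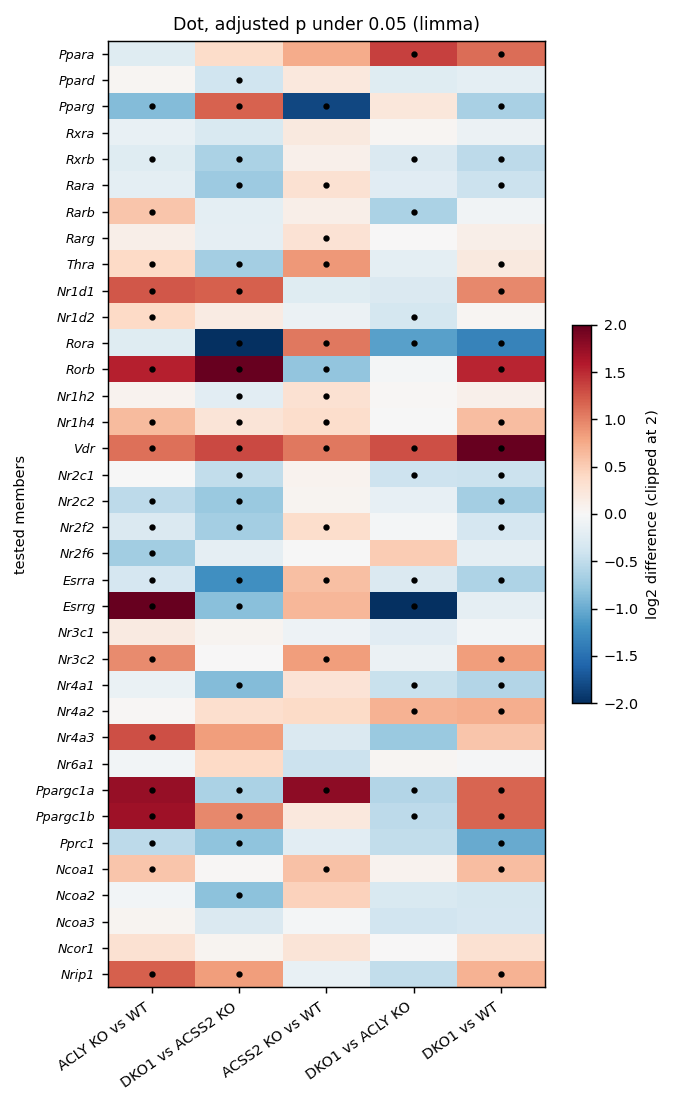
Log2 difference of each of the 36 tested members in 5 comparisons (columns), as colour clipped at 2 in either direction, with red for higher and blue for lower. A dot marks an adjusted p under 0.05 (limma), and Vdr, Ppargc1a and Esrra carry a dot in all 5 columns while Rxra, Nr3c1, Nr6a1, Ncoa3 and Ncor1 carry none.

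Deviations of single libraries from their group mean went with transcript length, in both directions. For each gene the deviations within a group cancel out. A library far to one side thus pushes the others of its group to the opposite side, and opposite signs within a group are not separate results. Spearman correlations over 12577 genes, given as a description, were −0.67 in DKO1 replicate 4, −0.58 in WT replicate 2, −0.57 in ACLY KO replicate 4 and −0.52 in ACSS2 KO replicate 1. They were 0.63 in DKO1 replicate 1, 0.58 in DKO1 replicate 3 and at most 0.52 in the other libraries. On the log2 scale the tested members deviated by a median of −0.35 in DKO1 replicate 4, 0.19 in DKO1 replicate 1, −0.14 in WT replicate 2 and 0.11 in DKO1 replicate 3. Members have long transcripts, with a median of 4296 bases against 3386 for all genes tested. Values without DKO1 replicate 4, the library whose members deviated most, are therefore given where they change a call or move it by over 1.5 times. Without it the medians over the members became 0.13 in DKO1 vs WT, −0.045 in DKO1 vs ACLY KO and −0.075 in DKO1 vs ACSS2 KO. The balance of directions moved too. DKO1 vs ACSS2 KO, with 7 higher and 15 lower, had 11 higher and 14 lower without this library and 11 and 13 after a correction for transcript length. ACSS2 KO vs WT, with 12 higher and 2 lower, had 13 and 6 after that correction and 14 and 8 with WT replicate 2 and DKO1 replicate 4 both left out.

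The PGC-1 coactivators held the largest differences from WT among the 8 coregulators, and the 3 genes did not move as a unit. PGC-1α (Ppargc1a; chromosome 5, 51454250 to 51567726), the inducible coactivator of mitochondrial, gluconeogenic and fatty acid oxidation genes, had 217, 204, 215 and 202 normalized counts in WT and 774, 668, 740.4 and 652 in ACLY KO. In ACSS2 KO, Ppargc1a was at 694, 758 and 728, and in DKO1 it was at 552, 556 and 337. Every knockout library exceeded every WT library, the ACLY KO and ACSS2 KO ranges overlapped, and all DKO1 values were below those of both single knockouts. Ppargc1a rose 3.36-fold in ACLY KO (1.75 ± 0.13, adjusted p = 2.1e-07), 3.45-fold in ACSS2 KO (1.79 ± 0.14, adjusted p = 1.7e-06) and 2.23-fold in DKO1 (1.16 ± 0.14, adjusted p = 1.7e-05) relative to WT. DKO1 lay below ACLY KO (−0.59, adjusted p = 0.0086) and below ACSS2 KO (−0.63, adjusted p = 0.0039). Without DKO1 replicate 4, the lowest DKO1 library, these differences were −0.35 (adjusted p = 0.004) and −0.39 (adjusted p = 0.0012), and the difference from WT was 1.398 (adjusted p = 1.0e-08).

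PGC-1β (Ppargc1b), the related coactivator linked to mitochondrial biogenesis and lipogenesis, had 50.6, 45.5, 37.3 and 34.99 normalized counts in WT and 156, 127, 131 and 136 in ACLY KO. In ACSS2 KO, Ppargc1b was at 58.8, 47.99 and 40.7, and in DKO1 it was at 99.1, 84.5 and 103. The ACLY KO and DKO1 values lay above all others, and WT and ACSS2 KO overlapped. It rose 3.24-fold in ACLY KO (1.695 ± 0.15, adjusted p = 6.6e-07) and 1.94-fold in DKO1 relative to ACSS2 KO (0.95 ± 0.17, adjusted p = 3.5e-04), whereas ACSS2 KO against WT gave 0.22 (adjusted p = 0.36). Ppargc1b was also higher in DKO1 than in WT (1.17, adjusted p = 3.4e-05) and lower in DKO1 than in ACLY KO (−0.52, adjusted p = 0.025), a call that was lost without ACLY KO replicate 1 or DKO1 replicate 3 (adjusted p up to 0.088).

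PRC (Pprc1; chromosome 19, 46044886 to 46072915), the serum-responsive member of the family, went the other way. Its values were 4233, 3069, 4413 and 4407 normalized counts in WT and 2756, 2889, 2914 and 2561 in ACLY KO. In ACSS2 KO, Pprc1 was at 3243, 3748 and 3387, and in DKO1 it was at 2373, 2340.1 and 1404. Each ACLY KO and DKO1 library was below all WT libraries, and WT replicate 2 was the lowest WT value. Pprc1 was lower in ACLY KO than in WT (−0.52 ± 0.16, adjusted p = 0.016), lower in DKO1 than in WT (−1.01 ± 0.17, adjusted p = 2.7e-04) and lower in DKO1 than in ACSS2 KO (−0.8 ± 0.18, adjusted p = 0.0026), with −0.76 (adjusted p = 1.6e-04) and −0.55 (adjusted p = 0.0028) for the last pair without DKO1 replicate 4. Genes of its chromosome 19 had a median difference of −0.39 in ACLY KO vs WT, −0.54 in DKO1 vs WT and −0.52 in DKO1 vs ACSS2 KO. The part of the chromosome in the result for Pprc1 was not tested.

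**Figure D3:**
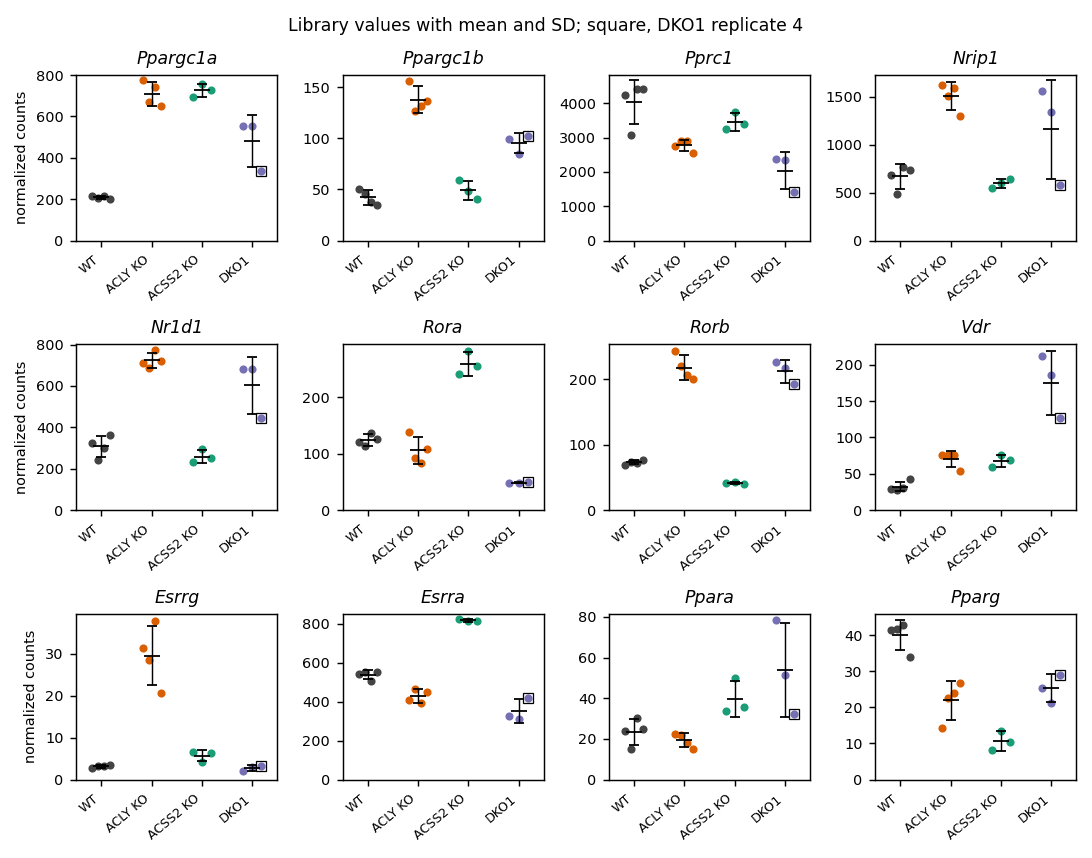
Normalized counts of 12 members by group, on vertical axes that start at 0, with 1 point per library, the group mean as a long bar and the SD as whiskers; a square marks DKO1 replicate 4. Ppargc1a was between 337 and 774 in the knockout groups and at most 217 in WT, and Rora was highest in ACSS2 KO and lowest in DKO1.

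Genes that ERR receptors and PGC-1 coactivators are known to drive, mostly of the mitochondrial respiratory chain and fatty acid oxidation, are counted next. Of 18 listed genes, 17 were tested, with 3 higher and 1 lower (median 0.105) in ACLY KO vs WT, 2 higher and 0 lower (median 0.075) in ACSS2 KO vs WT and 4 higher and 2 lower (median 0.051) in DKO1 vs WT, where 48.5, 26.0 and 56.0% of all genes were called. Acadm, the medium-chain acyl-CoA dehydrogenase, had 1577 ± 227 in WT and 2360 ± 110.2, 1680 ± 49.5 and 3471 ± 539 in ACLY KO, ACSS2 KO and DKO1 (SD), and was higher in DKO1 than in WT (1.14, adjusted p = 2.1e-06). Nrf1, a regulator of respiratory chain genes, was lower (−0.67, adjusted p = 1.2e-06), and citrate synthase (Cs) (−0.42, adjusted p = 9.7e-04), in the same comparison.

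Among the other coregulators, the ligand-dependent corepressor RIP140 (Nrip1; chromosome 16, 76287400 to 76373827), known to hold back oxidative metabolism, rose with ACLY loss. It had 678, 484, 771 and 737 normalized counts in WT and 1621, 1511, 1594 and 1302 in ACLY KO. In ACSS2 KO, Nrip1 was at 545, 596 and 646, and in DKO1 it was at 1557, 1339 and 581. All ACLY KO values exceeded all WT and ACSS2 KO values, and DKO1 replicates 1 and 3 did so too, while replicate 4 fell among them. The difference was 1.19 ± 0.25, adjusted p = 0.0014 in ACLY KO vs WT and 0.84 ± 0.29, adjusted p = 0.026 in DKO1 vs ACSS2 KO. In DKO1 vs WT it was 0.697 ± 0.27, adjusted p = 0.043, a call lost when any of 12 single libraries was left out (adjusted p up to 0.19). Without DKO1 replicate 4 the last pair became 1.28 (adjusted p = 2.2e-05) and 1.13 (adjusted p = 3.9e-05). The DKO1 vs ACSS2 KO call was lost without ACSS2 KO replicate 1 or 2 or without DKO1 replicate 1 or 3 (adjusted p up to 0.1).

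SRC-1 (Ncoa1; chromosome 12, 4247362 to 4477182), a p160 coactivator that recruits acetyltransferases, had 328, 274, 339.8 and 327 normalized counts in WT and 490.05, 486, 504 and 387 in ACLY KO. In ACSS2 KO, Ncoa1 was at 425, 479 and 529.9, and in DKO1 it was at 586, 578 and 339. The ACLY KO and ACSS2 KO values all lay above WT, and DKO1 replicate 4 fell within the WT range. Ncoa1 was higher than in WT in ACLY KO (0.55, adjusted p = 0.012), ACSS2 KO (0.59, adjusted p = 0.024) and DKO1 (0.62, adjusted p = 0.0088), the last being 0.88 (adjusted p = 3.4e-05) without DKO1 replicate 4. The ACSS2 KO call was lost without WT replicate 2 or without ACSS2 KO replicate 2 or 4 (adjusted p up to 0.11). The differences between DKO1 and each single knockout did not pass the test, at 0.066 (adjusted p = 0.81) and 0.03 (adjusted p = 0.9).

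The other p160 genes showed less. Ncoa2 had means of 1363 ± 337 in WT and 1279 ± 144, 1838 ± 218 and 1098 ± 420.2 in ACLY KO, ACSS2 KO and DKO1 (SD), and its call in DKO1 vs ACSS2 KO, −0.82 (adjusted p = 0.026), became −0.45 (adjusted p = 0.087) without DKO1 replicate 4 and was also lost without ACSS2 KO replicate 2 or 4. Ncoa3 was not called in any comparison, with differences between −0.38 and 0.048. Ncor1 (chromosome 11, 62316426 to 62458541), the corepressor that carries histone deacetylase 3 to unliganded receptors, had 4801, 4143, 5484 and 5606 normalized counts in WT and 6368, 6270.2, 6496 and 5385 in ACLY KO. In ACSS2 KO, Ncor1 was at 5263, 6259 and 6288, and in DKO1 it was at 7355, 6712 and 4721. The ranges of all 4 groups overlapped, and no comparison was called, the closest being 0.298 (adjusted p = 0.092) in ACLY KO vs WT and 0.31 (adjusted p = 0.095) in DKO1 vs WT. Without DKO1 replicate 4 these were 0.298 (adjusted p = 0.018) and 0.499 (adjusted p = 0.0029).

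Of 20 other coregulators of nuclear receptors, all were tested. ACLY KO vs WT had 2 higher and 5 lower (median −0.09), where 48.5% of all genes tested were called. ACSS2 KO vs WT had 1 higher and 0 lower (median 0.033), where 26.0% were called. DKO1 vs WT had 1 higher and 8 lower (median −0.22), where 56.0% were called. The deacetylase gene Sirt1 had 421 ± 46.3 in WT and 99.99 ± 3.91, 462 ± 8.85 and 66.2 ± 11.6 in ACLY KO, ACSS2 KO and DKO1 (SD). Sirt1 fell in ACLY KO and DKO1 relative to WT, with differences of −2.06 (adjusted p = 5.7e-09) and −2.66 (adjusted p = 1.5e-09). The methyltransferase gene Nsd1 differed by −2.65 (adjusted p = 3.5e-08) and −1.98 (adjusted p = 9.2e-07) in these comparisons, and the corepressor gene Hr by −1.29 (adjusted p = 5.2e-08) and −1.09 (adjusted p = 4.9e-07).

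The 3 PPARs, receptors for fatty acids and their derivatives, each had a pattern of its own. PPARα (Ppara; chromosome 15, 85734983 to 85802819), the driver of hepatic fatty acid oxidation, was low in these cells, with 24.1, 15.01, 30.3 and 24.9 normalized counts in WT and 22.6, 21.7, 18.04 and 14.98 in ACLY KO. In ACSS2 KO, Ppara was at 33.5, 50.05 and 35.5, and in DKO1 it was at 78.5, 51.2 and 32.5. The DKO1 libraries were above all WT and ACLY KO libraries, and the ACSS2 KO and DKO1 ranges overlapped. Ppara was 2.58-fold higher in DKO1 than in ACLY KO (1.37 ± 0.297, adjusted p = 0.0043) and 2.17-fold higher than in WT (1.12 ± 0.297, adjusted p = 0.0062). Without DKO1 replicate 4 these differences were 1.68 (adjusted p = 6.9e-04) and 1.43 (adjusted p = 7.7e-04), and ACSS2 KO vs WT, 0.75 (adjusted p = 0.086) with all libraries, became 0.75 (adjusted p = 0.032).

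PPARγ (Pparg; chromosome 6, 115360951 to 115490399), the adipogenic PPAR, was highest in WT. Its values were 41.5, 41.7, 42.9 and 33.8 normalized counts in WT and 14.3, 22.7, 24.1 and 26.7 in ACLY KO. In ACSS2 KO, Pparg was at 8.198, 13.6 and 10.4, and in DKO1 it was at 25.4, 21.3 and 29.1. Every knockout library was below every WT library, and ACSS2 KO was the lowest group throughout. Relative to WT, Pparg fell in ACLY KO (−0.87, adjusted p = 0.0039), ACSS2 KO (−1.82, adjusted p = 6.4e-05) and DKO1 (−0.65, adjusted p = 0.028). It was higher in DKO1 than in ACSS2 KO (1.18, adjusted p = 0.0012). The DKO1 vs WT call was lost without WT replicate 1, 2 or 3 or without DKO1 replicate 1 or 3 (adjusted p up to 0.1). PPARδ (Ppard), the broadly expressed PPAR, had 750.02 ± 101 in WT and 767 ± 50.4, 860.3 ± 12.8 and 662 ± 149 in ACLY KO, ACSS2 KO and DKO1 (SD), and its lone call, −0.404 (adjusted p = 0.04) in DKO1 vs ACSS2 KO, was −0.21 (adjusted p = 0.14) without DKO1 replicate 4 and was lost on leaving out any of 7 single libraries.

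Known PPAR target genes moved in both directions. Of 36 listed genes, 23 were tested. ACLY KO vs WT had 11 higher and 5 lower (median 0.24), where 48.5% of all genes tested were called. ACSS2 KO vs WT had 5 higher and 2 lower (median 0.16), where 26.0% were called. DKO1 vs WT had 12 higher and 6 lower (median 0.47), where 56.0% were called. DKO1 vs ACLY KO had 6 higher and 1 lower (median 0.15), where 27.9% were called. Cpt2, the inner mitochondrial carnitine palmitoyltransferase, had 462 ± 17.8 in WT and 678 ± 23.03, 575 ± 43.2 and 797 ± 8.12 in ACLY KO, ACSS2 KO and DKO1 (SD), a difference of 0.78 (adjusted p = 3.8e-07) in DKO1 vs WT. Vnn1, a pantetheinase that recycles the vitamin precursor of coenzyme A, had 3258 ± 178 in WT and 2986 ± 65.98, 3171 ± 35.7 and 6337 ± 505 in ACLY KO, ACSS2 KO and DKO1 (SD), with 1.08 (adjusted p = 1.3e-07) in DKO1 vs ACLY KO. Angptl4, an inhibitor of lipoprotein lipase, went the other way, with 397 ± 28.8 in WT and 79.3 ± 15.8, 106 ± 8.77 and 83.7 ± 6.35 in ACLY KO, ACSS2 KO and DKO1 (SD) and −2.23 (adjusted p = 3.9e-08) in DKO1 vs WT.

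Of the 2 tested RXR genes, Rxrb was called in 4 comparisons and Rxra in none. RXRα (Rxra; chromosome 2, 27676440 to 27762957), the common partner of the metabolic receptors, had 1156, 887, 1064 and 1219 normalized counts in WT and 955, 984, 1042 and 916 in ACLY KO. In ACSS2 KO, Rxra was at 1194, 1228 and 1267, and in DKO1 it was at 1197, 1131 and 728. The groups overlapped except that the ACSS2 KO values exceeded those of ACLY KO, and no tested comparison was called, with −0.14 (adjusted p = 0.43) for ACLY KO, 0.19 (adjusted p = 0.39) for ACSS2 KO and −0.11 (adjusted p = 0.56) for DKO1 relative to WT. Rxrb, the more abundant paralogue per kilobase, had 1332 ± 64.5 in WT and 1129 ± 47.1, 1428 ± 31.9 and 926 ± 93.96 in ACLY KO, ACSS2 KO and DKO1 (SD). Rxrb was lower in DKO1 than in WT (−0.53, adjusted p = 3.7e-05), than in ACSS2 KO (−0.63, adjusted p = 1.4e-05) and than in ACLY KO (−0.29, adjusted p = 0.0089), and lower in ACLY KO than in WT (−0.24, adjusted p = 0.0092).

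Retinoic acid receptors are ligand-activated partners of RXR. Rara had 599 ± 70.3 in WT and 521 ± 28.8, 737 ± 28.2 and 443 ± 14.4 in ACLY KO, ACSS2 KO and DKO1 (SD) and was lower in DKO1 than in WT (−0.43, adjusted p = 0.0013) and than in ACSS2 KO (−0.73, adjusted p = 2.9e-05). Rarb, itself a retinoic acid target gene, was higher in ACLY KO than in WT (0.55, adjusted p = 5.8e-05) and lower in DKO1 than in ACLY KO (−0.63, adjusted p = 1.4e-04). It shares 34.1% of its exonic bases with Top2b on the other strand, for which the same differences were −0.12 (adjusted p = 0.47) and −0.19 (adjusted p = 0.35). In ACSS2 KO vs WT, Rara gave 0.31 (adjusted p = 0.023) and Rarg 0.29 (adjusted p = 0.03), calls that were lost without ACSS2 KO replicate 2 or 4 and, for Rarg, without WT replicate 2 or 4 (adjusted p up to 0.095 and 0.12). Rarg in DKO1 vs WT, 0.11 (adjusted p = 0.3), became 0.22 (adjusted p = 0.022) without DKO1 replicate 4. Of 11 retinoic acid target genes, 6 were tested. ACLY KO vs WT had 1 higher and 2 lower (median −0.039), where 48.5% of all genes tested were called. DKO1 vs ACSS2 KO had 1 higher and 4 lower (median −0.504), where 53.7% were called. Stra6, which encodes the cellular importer of retinol, had 718 ± 84.9 in WT and 2728 ± 130.3, 636 ± 17.2 and 1214 ± 326 in ACLY KO, ACSS2 KO and DKO1 (SD). The retinoic acid hydroxylase gene Cyp26b1 had 338 ± 22.5 in WT and 199 ± 7.84, 330.1 ± 7.401 and 206 ± 22.5 in ACLY KO, ACSS2 KO and DKO1.

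Thyroid hormone receptor α (Thra) rose in both single knockouts. Its means were 585 ± 35.4 in WT and 770.2 ± 18.9, 1072 ± 53.9 and 672 ± 52.8 in ACLY KO, ACSS2 KO and DKO1 (SD), and it was higher than in WT in ACLY KO (0.399, adjusted p = 2.3e-04) and in ACSS2 KO (0.87, adjusted p = 1.9e-06), but lower in DKO1 than in ACSS2 KO (−0.67, adjusted p = 7.4e-06). The small difference in DKO1 vs WT, 0.199 (adjusted p = 0.03), was lost without WT replicate 1 or 4 or DKO1 replicate 1 or 3 (adjusted p up to 0.12). Thra overlaps Nr1d1 tail to tail on the other strand over 5.7% of its exonic bases. Of 8 thyroid hormone target genes, 5 were tested. ACLY KO vs WT had 0 higher and 3 lower (median −0.47), where 48.5% of all genes tested were called. DKO1 vs WT had 1 higher and 3 lower (median −0.59), where 56.0% were called. Malic enzyme (Me1) was higher in DKO1 than in WT (0.47, adjusted p = 9.2e-06), and Bcl3, which encodes a nuclear IκB protein, was lower (−2.42, adjusted p = 5.7e-06).

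All 4 clock-linked receptors were tested, and the repressors (REV-ERB) and activators (ROR), which compete for the same DNA element, did not move as 2 blocks. REV-ERBα (Nr1d1; chromosome 11, 98767932 to 98775333), a heme-binding repressor of the clock gene Arntl, had 325, 241, 301 and 362 normalized counts in WT and 713, 688, 775 and 722 in ACLY KO. In ACSS2 KO, Nr1d1 was at 229.9, 294 and 252, and in DKO1 it was at 683, 683 and 444. All ACLY KO and DKO1 values were above all WT and ACSS2 KO values, and WT and ACSS2 KO overlapped. Nr1d1 rose 2.38-fold in ACLY KO relative to WT (1.25 ± 0.15, adjusted p = 1.5e-05) and 2.29-fold in DKO1 relative to ACSS2 KO (1.198 ± 0.17, adjusted p = 7.0e-05), and was higher in DKO1 than in WT (0.96, adjusted p = 2.5e-04). Differences in ACSS2 KO vs WT (−0.24, adjusted p = 0.33) and DKO1 vs ACLY KO (−0.29, adjusted p = 0.21) did not pass the test. REV-ERBβ (Nr1d2), its paralogue, had 1557 ± 64.3 in WT and 2054 ± 64.7, 1437 ± 29.6 and 1616 ± 251 in ACLY KO, ACSS2 KO and DKO1 (SD), with 0.4 (adjusted p = 0.0012) in ACLY KO vs WT and −0.36 (adjusted p = 0.0093) in DKO1 vs ACLY KO, the latter −0.22 (adjusted p = 0.0068) without DKO1 replicate 4. Leaving out that library also brought calls for Nr1d2 in DKO1 vs WT, from 0.042 (adjusted p = 0.71) to 0.18 (adjusted p = 0.011), and in DKO1 vs ACSS2 KO, from 0.16 (adjusted p = 0.18) to 0.29 (adjusted p = 5.7e-04).

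RORα (Rora; chromosome 9, 68653786 to 69388246), an activator that binds sterols, moved in opposite directions with ACSS2 loss in the 2 backgrounds. It had 119.9, 114, 137 and 126 normalized counts in WT and 138, 93.1, 84.1 and 109 in ACLY KO. In ACSS2 KO, Rora was at 241, 283 and 256, and in DKO1 it was at 48.1, 47.8 and 49.1. The ACSS2 KO values were above all others and the DKO1 values below all others, while WT and ACLY KO overlapped. Rora rose 2.09-fold in ACSS2 KO relative to WT (1.06 ± 0.14, adjusted p = 1.3e-04) and stood 2.13-fold lower in DKO1 than in ACLY KO (−1.09 ± 0.14, adjusted p = 1.2e-04). The difference of DKO1 from ACSS2 KO was −2.399 ± 0.15, adjusted p = 3.6e-08, and from WT −1.34 ± 0.14, adjusted p = 4.7e-06.

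RORβ (Rorb; chromosome 19, 18930605 to 19111196), better known from neural tissue and retina, followed ACLY. Its values were 69.4, 73.5, 72.6 and 76.4 normalized counts in WT and 244, 220.3, 206 and 200.5 in ACLY KO. In ACSS2 KO, Rorb was at 41.4, 43.5 and 40.01, and in DKO1 it was at 227, 217 and 193. ACLY KO and DKO1 overlapped above WT, and ACSS2 KO lay below WT with no overlap. Rorb rose 2.95-fold in ACLY KO (1.56 ± 0.087, adjusted p = 1.3e-08) and 4.99-fold in DKO1 relative to ACSS2 KO (2.32 ± 0.101, adjusted p = 1.1e-09), and was lower in ACSS2 KO than in WT (−0.796 ± 0.094, adjusted p = 4.3e-05). DKO1 was above WT (1.52, adjusted p = 3.4e-08), and DKO1 vs ACLY KO gave −0.036 (adjusted p = 0.8). Rorb lies on chromosome 19, whose genes had a median of −0.39 in ACLY KO vs WT, opposite in sign to Rorb.

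Of 15 clock genes outside the member list, 14 were tested. ACLY KO vs WT had 7 higher and 4 lower (median 0.31), where 48.5% of all genes tested were called. ACSS2 KO vs WT had 1 higher and 2 lower (median 0.018), where 26.0% were called. DKO1 vs ACSS2 KO had 5 higher and 2 lower (median 0.301), where 53.7% were called. Arntl, which REV-ERBs repress and RORs activate, differed from WT by 0.65 (adjusted p = 4.6e-06) in ACLY KO, 0.38 (adjusted p = 0.002) in ACSS2 KO and 0.42 (adjusted p = 4.0e-04) in DKO1. The clock output factors Dbp (1.77, adjusted p = 3.3e-06) and Tef (0.899, adjusted p = 4.5e-08) were higher in DKO1 than in WT, and the related Hlf was lower (−2.17, adjusted p = 8.4e-06). Dbp had 55.5 ± 9.05 in WT and 124 ± 9.404, 53.6 ± 4.57 and 195 ± 61.9 in ACLY KO, ACSS2 KO and DKO1 (SD).

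Among the receptors for oxysterols, bile acids and vitamin D, the vitamin D receptor (Vdr; chromosome 15, 97854425 to 97910630) was the lone member of the 36 that was called as higher in all 5 comparisons. It had 29.2, 28, 30.4 and 42.1 normalized counts in WT and 76.3, 75.4, 76.05 and 53.6 in ACLY KO. In ACSS2 KO, Vdr was at 59.6, 75.97 and 68.7, and in DKO1 it was at 212, 186 and 127. WT was below all other libraries, the ACLY KO and ACSS2 KO ranges overlapped, and every DKO1 value was above every other value. Vdr was 2.14-fold higher in ACLY KO (1.097 ± 0.19, adjusted p = 2.8e-04), 2.08-fold higher in ACSS2 KO (1.06 ± 0.201, adjusted p = 0.0017) and 5.21-fold higher in DKO1 (2.38 ± 0.201, adjusted p = 5.6e-07) than in WT. It was also 2.44-fold higher in DKO1 than in ACLY KO (1.29 ± 0.201, adjusted p = 4.6e-04) and 2.502-fold higher than in ACSS2 KO (1.32 ± 0.22, adjusted p = 1.8e-04). Vdr was the 1 member called in the same direction in both tests of ACSS2 loss. Genes of its chromosome 15 had medians of 0.24 in ACLY KO vs WT, −0.049 in ACSS2 KO vs WT and 0.067 in DKO1 vs WT.

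Of 5 vitamin D target genes, 3 passed the filter, 1 of them (Cyp27b1) only through DKO1. S100g, the intestinal calcium-binding protein calbindin-D9k, had 31.8 ± 6.12 in WT and 34.02 ± 5.02, 35.4 ± 2.45 and 479.6 ± 391 in ACLY KO, ACSS2 KO and DKO1 (SD), with its highest value, 929, in DKO1 replicate 4. The rise in S100g was confined among the tested comparisons to DKO1, at 3.595 (adjusted p = 3.4e-06) against WT, 3.49 (adjusted p = 2.2e-05) against ACLY KO and 3.43 (adjusted p = 9.5e-06) against ACSS2 KO. Osteopontin (Spp1), also a cholangiocyte marker, had 14930 ± 1191 in WT and 22090 ± 561, 22210 ± 1097 and 40610 ± 10300 in ACLY KO, ACSS2 KO and DKO1 (SD), and was higher in DKO1 than in WT (1.42, adjusted p = 8.8e-07). Cyp27b1, the enzyme that activates vitamin D and that the receptor is known to repress, had 7.17 ± 1.59 in WT and 11.2 ± 5.04, 9.65 ± 3.23 and 16.6 ± 5.34 in ACLY KO, ACSS2 KO and DKO1 (SD).

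LXRβ (Nr1h2; chromosome 7, 44549616 to 44553951), the ubiquitous oxysterol receptor, had 834, 705, 749 and 735 normalized counts in WT and 812, 772, 806 and 791 in ACLY KO. In ACSS2 KO, Nr1h2 was at 949, 915 and 945, and in DKO1 it was at 749.9, 810.2 and 880.1. The ACSS2 KO values were above all others, and the remaining groups overlapped. Nr1h2 was higher in ACSS2 KO than in WT (0.31, adjusted p = 0.0053) and lower in DKO1 than in ACSS2 KO (−0.21, adjusted p = 0.035), the latter lost without any single ACSS2 KO library and without DKO1 replicate 1 or 3 (adjusted p up to 0.12). Of 15 LXR target genes, 8 were tested. ACLY KO vs WT had 3 higher and 2 lower (median −0.082), where 48.5% of all genes tested were called. ACSS2 KO vs WT had 3 higher and 2 lower (median 0.17), where 26.0% were called. DKO1 vs WT had 3 higher and 4 lower (median 0.035), where 56.0% were called. The desaturase gene Scd1 had 147 ± 15.4 in WT and 19.8 ± 1.5, 19.5 ± 2.4 and 20.2 ± 4.13 in ACLY KO, ACSS2 KO and DKO1 (SD), lower in each knockout group than in WT, with −2.82 (adjusted p = 7.6e-09), −2.85 (adjusted p = 9.6e-08) and −2.81 (adjusted p = 1.7e-08). The phospholipid transfer protein gene Pltp had 316 ± 38.5 in WT and 441 ± 16.7, 221 ± 9.74 and 890.3 ± 24.9 in ACLY KO, ACSS2 KO and DKO1, higher in DKO1 than in WT (1.5, adjusted p = 1.7e-08), and Arl4c, a small GTPase gene, was lower (−0.23, adjusted p = 0.0019).

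The bile acid receptor FXR (Nr1h4) had 179 ± 13.02 in WT and 278 ± 20.04, 230.1 ± 16.9 and 276 ± 11.4 in ACLY KO, ACSS2 KO and DKO1 (SD). It was higher than in WT in ACLY KO (0.63, adjusted p = 2.4e-05), ACSS2 KO (0.36, adjusted p = 0.0079) and DKO1 (0.62, adjusted p = 4.6e-05). In DKO1 vs ACSS2 KO it gave 0.27 (adjusted p = 0.028), lost without ACSS2 KO replicate 2 or 4 or DKO1 replicate 3 or 4 (adjusted p up to 0.12). Of 11 FXR targets only Abcb11, the bile salt export pump, was expressed enough to be tested, with 19.1 ± 2.05 in WT and 47.9 ± 7.77, 20.2 ± 6.04 and 54.4 ± 19.1 in ACLY KO, ACSS2 KO and DKO1 (SD) and 1.28 (adjusted p = 5.2e-04) in ACLY KO vs WT. Although PXR and CAR were themselves at or near 0, 7 of 13 known target genes were tested. ACLY KO vs WT had 5 higher and 1 lower (median 0.62), where 48.5% of all genes tested were called. DKO1 vs ACSS2 KO had 6 higher and 1 lower (median 0.82), where 53.7% were called. The cytochrome P450 gene Cyp3a13 had 40.8 ± 3.99 in WT and 130.3 ± 12.4, 33.9 ± 15.7 and 329.9 ± 50.1 in ACLY KO, ACSS2 KO and DKO1 (SD), and the P450 reductase gene Por was higher in DKO1 than in WT (0.602, adjusted p = 1.9e-05). Aldh1a1, a retinaldehyde dehydrogenase gene, was lower (−1.03, adjusted p = 3.7e-08).

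The testicular receptors and COUP-TFs, mostly repressors, bind repeats shared with RXR partners. COUP-TFII (Nr2f2) had 1152 ± 107 in WT and 943 ± 42.1, 1461 ± 47.3 and 914 ± 61.8 in ACLY KO, ACSS2 KO and DKO1 (SD), and was lower in ACLY KO than in WT (−0.29, adjusted p = 0.0049) and in DKO1 than in ACSS2 KO (−0.68, adjusted p = 1.5e-05), but higher in ACSS2 KO than in WT (0.35, adjusted p = 0.0049). TR4 (Nr2c2) was lower in ACLY KO than in WT (−0.52, adjusted p = 0.034), a call lost when any of 6 single libraries was left out (adjusted p up to 0.091), and lower in DKO1 than in ACSS2 KO (−0.74, adjusted p = 0.011), which became −0.43 (adjusted p = 0.019) without DKO1 replicate 4. In DKO1 vs WT it gave −0.68 (adjusted p = 0.012), and −0.38 (adjusted p = 0.027) without that library. Nr2c2 shares 30.7% of its exonic bases with Mrps25 on the other strand. Mrps25 gave −0.37 (adjusted p = 0.11) in ACLY KO vs WT, 0.095 (adjusted p = 0.725) in DKO1 vs ACSS2 KO and −0.23 (adjusted p = 0.35) in DKO1 vs WT. The part of this overlap in the values was not tested. TR2 (Nr2c1) was lower in DKO1 than in WT, ACLY KO and ACSS2 KO, with differences of −0.43 (adjusted p = 0.014), −0.41 (adjusted p = 0.033) and −0.496 (adjusted p = 0.0096), and without DKO1 replicate 4 −0.25 (adjusted p = 0.051), −0.23 (adjusted p = 0.1) and −0.32 (adjusted p = 0.023). The call against ACLY KO was also lost without any single ACLY KO library.

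EAR2 (Nr2f6) had 908, 1429.5, 886 and 901 normalized counts in WT and 606, 637, 595 and 656 in ACLY KO. In ACSS2 KO, Nr2f6 was at 1007, 1019.8 and 979.6, and in DKO1 it was at 654, 698 and 1534. The highest libraries were WT replicate 2 and DKO1 replicate 4. Nr2f6 was lower in ACLY KO than in WT (−0.69, adjusted p = 0.023), lost without WT replicate 2 or without ACLY KO replicate 1 or 3 (adjusted p up to 0.07), and with both high libraries left out it was at −0.53 (adjusted p = 2.9e-07) in ACLY KO vs WT and −0.41 (adjusted p = 2.4e-05) in DKO1 vs WT. Without DKO1 replicate 4 alone, Nr2f6 in DKO1 went from −0.18 (adjusted p = 0.55) to −0.58 (adjusted p = 0.005) relative to WT, and from −0.17 (adjusted p = 0.6) to −0.57 (adjusted p = 0.0082) relative to ACSS2 KO. It shares 54.4% of its exonic bases with Ocel1 on the other strand. Ocel1 lay between 22.98 and 103.4 normalized counts, with 0.119 (adjusted p = 0.715) in ACLY KO vs WT and 1.33 (adjusted p = 6.9e-04) in DKO1 vs WT. The part of this overlap in the values was not tested.

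The estrogen-related receptors are orphan receptors that work with PGC-1 on mitochondrial genes. ERRα (Esrra; chromosome 19, 6910977 to 6921813) had 544, 552, 507 and 554 normalized counts in WT and 408, 464, 392 and 452 in ACLY KO. In ACSS2 KO, Esrra was at 826, 813 and 815, and in DKO1 it was at 327, 309.98 and 420.2. The ACSS2 KO values were above all others, and every ACLY KO and DKO1 value was below WT. Esrra was higher in ACSS2 KO than in WT (0.6 ± 0.099, adjusted p = 5.8e-04), and lower in ACLY KO than in WT (−0.33 ± 0.091, adjusted p = 0.0085), in DKO1 than in WT (−0.62 ± 0.099, adjusted p = 1.4e-04) and in DKO1 than in ACSS2 KO (−1.23 ± 0.11, adjusted p = 5.7e-07). In DKO1 vs ACLY KO the ranges overlapped and the call, −0.29 (adjusted p = 0.042), was lost on leaving out any of 11 single libraries (adjusted p up to 0.16), though it was −0.43 (adjusted p = 9.2e-04) without DKO1 replicate 4. Esrra shares chromosome 19 with Pprc1, and the medians given there for that chromosome have the sign of its own differences.

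ERRγ (Esrrg; chromosome 1, 187608791 to 188214885) had 2.72, 3.34, 3.35 and 3.53 normalized counts in WT and 31.3, 28.5, 37.9 and 20.8 in ACLY KO. In ACSS2 KO, Esrrg was at 6.65, 4.28 and 6.32, and in DKO1 it was at 2.05, 2.93 and 3.33. The ACLY KO libraries stood far above the rest, and WT and DKO1 overlapped. The fitted difference was 2.83 in ACLY KO vs WT and −3.01 in DKO1 vs ACLY KO. These are given with no test, because the gene passed the filter only through ACLY KO. At values this low the added constant of 1 shrinks a difference.

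Of the corticoid receptors, the glucocorticoid receptor Nr3c1 was abundant and was not called in any comparison, with means of 3449.6 ± 398 in WT and 3894 ± 281, 3195 ± 155 and 3401 ± 873 in ACLY KO, ACSS2 KO and DKO1 (SD). Its 0.055 (adjusted p = 0.79) in DKO1 vs ACSS2 KO became 0.29 (adjusted p = 0.032) without DKO1 replicate 4. The mineralocorticoid receptor Nr3c2 had 151 ± 34.5 in WT and 288 ± 39.1, 265 ± 19.03 and 279 ± 102 in ACLY KO, ACSS2 KO and DKO1 (SD), higher than in WT in ACLY KO (0.94, adjusted p = 0.0029), ACSS2 KO (0.83, adjusted p = 0.02) and DKO1 (0.83, adjusted p = 0.0092). The ACSS2 KO call was lost without WT replicate 2 or ACSS2 KO replicate 2 or 4 (adjusted p up to 0.077), and DKO1 vs WT was 1.16 (adjusted p = 8.0e-05) without DKO1 replicate 4. Of 15 glucocorticoid target genes, 13 were tested. ACLY KO vs WT had 5 higher and 5 lower (median −0.12), where 48.5% of all genes tested were called. DKO1 vs WT had 5 higher and 6 lower (median 0.18), where 56.0% were called. Tsc22d3, the glucocorticoid-induced leucine zipper, had 271 ± 19.9 in WT and 473 ± 21.6, 519.6 ± 25.2 and 908 ± 146 in ACLY KO, ACSS2 KO and DKO1 (SD), higher in each knockout group. The tyrosine aminotransferase gene Tat had 27.9 ± 5.54 in WT and 28.1 ± 4.54, 26.6 ± 6.91 and 332 ± 54.5 in ACLY KO, ACSS2 KO and DKO1, higher in DKO1 than in each other group, with 3.52 (adjusted p = 1.4e-07) against ACLY KO. Lipocalin 2 (Lcn2) had 49.2 ± 10.7 in WT and 284 ± 15.5, 135 ± 7.52 and 241 ± 52.9 in ACLY KO, ACSS2 KO and DKO1, higher in DKO1 than in WT (2.27, adjusted p = 9.8e-08).

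The NR4A receptors are orphan receptors made as immediate-early genes. NOR1 (Nr4a3; chromosome 4, 48045153 to 48086447) was near the detection limit, with 9.38, 12.7, 12.5 and 5.82 normalized counts in WT and 24.5, 21.97, 21.2 and 34.96 in ACLY KO. In ACSS2 KO, Nr4a3 was at 11.2, 12.3 and 3.15, and in DKO1 it was at 20.9, 19.1 and 7.82. The ACLY KO values were above all WT values, and the other groups overlapped with WT. Nr4a3 was higher in ACLY KO than in WT by 1.29 ± 0.41, adjusted p = 0.019, a call lost without WT replicate 4 or ACLY KO replicate 4 (adjusted p up to 0.06). In DKO1 vs ACSS2 KO it was at 0.84 (adjusted p = 0.15), and at 1.26 (adjusted p = 0.035) without DKO1 replicate 4. NUR77 (Nr4a1) had 306 ± 39.7 in WT and 276 ± 7.34, 369.5 ± 61.3 and 201 ± 4.72 in ACLY KO, ACSS2 KO and DKO1 (SD) and was lower in DKO1 than in WT, ACLY KO and ACSS2 KO, with differences of −0.59 (adjusted p = 5.8e-04), −0.45 (adjusted p = 0.0091) and −0.86 (adjusted p = 4.8e-05). NURR1 (Nr4a2) was higher in DKO1 than in WT and ACLY KO, with differences of 0.72 (adjusted p = 0.012) and 0.699 (adjusted p = 0.028). The ranges overlapped, and leaving out DKO1 replicate 4 gave 1.01 (adjusted p = 2.1e-04) and 0.99 (adjusted p = 7.5e-04). That also moved DKO1 vs ACSS2 KO from 0.33 (adjusted p = 0.24) to 0.62 (adjusted p = 0.0095). The DKO1 vs WT call was lost without DKO1 replicate 1 (adjusted p = 0.062), and the other without ACLY KO replicate 1 or 4 or DKO1 replicate 1 or 3 (adjusted p up to 0.1).

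Of 15 other immediate-early genes, 13 were tested. ACLY KO vs WT had 1 higher and 7 lower (median −0.32), where 48.5% of all genes tested were called. ACSS2 KO vs WT had 7 higher and 2 lower (median 0.72), where 26.0% were called. DKO1 vs ACSS2 KO had 1 higher and 10 lower (median −0.76), where 53.7% were called. Fos had 1243 ± 72.3 in WT and 790.2 ± 53.2, 2969 ± 307 and 715 ± 40.5 in ACLY KO, ACSS2 KO and DKO1 (SD) and Egr1 2996 ± 367 in WT and 1145 ± 231, 6271 ± 944 and 1266 ± 80.7 in ACLY KO, ACSS2 KO and DKO1. Dusp1, a phosphatase that turns off MAP kinases, was lower in DKO1 than in WT (−0.66, adjusted p = 3.8e-06). The germ cell nuclear factor Nr6a1 had 429.99 ± 40.4 in WT and 413 ± 21.3, 327 ± 94.2 and 428 ± 83.8 in ACLY KO, ACSS2 KO and DKO1 (SD) and was not called in any comparison with all libraries. Without DKO1 replicate 4, Nr6a1 was called in ACSS2 KO vs WT (−0.42 (adjusted p = 0.083), then −0.42 (adjusted p = 0.028)) and in DKO1 vs ACSS2 KO (0.404 (adjusted p = 0.074), then 0.58 (adjusted p = 0.0096)), and as positive in the interaction described below.

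Beyond the members, 3 of 11 other nuclear receptors were tested. Of these, 1 was higher and 2 lower in ACLY KO vs WT, where 48.5% of all genes tested were called. In ACSS2 KO vs WT 2 were higher and 1 lower, where 26.0% were called. In DKO1 vs WT 0 were higher and 2 lower, where 56.0% were called. HNF4α (Hnf4a), the master regulator of hepatocyte identity, had 172 ± 21.9 in WT and 28.7 ± 8.95, 39.8 ± 7.86 and 22.4 ± 5.26 in ACLY KO, ACSS2 KO and DKO1 (SD) and fell in every knockout group relative to WT, with differences of −2.59 (adjusted p = 8.0e-07), −2.097 (adjusted p = 3.9e-05) and −2.904 (adjusted p = 5.5e-07). Of 20 genes that make, carry or clear receptor ligands, 7 were tested. ACLY KO vs WT had 3 higher and 3 lower (median 0.395), where 48.5% of all genes tested were called. DKO1 vs WT had 4 higher and 3 lower (median 0.59), where 56.0% were called. Among the 7, the retinol carrier Rbp4 had 73.3 ± 18.1 in WT and 11.01 ± 2.84, 71.9 ± 9.77 and 9.71 ± 2.54 in ACLY KO, ACSS2 KO and DKO1 (SD). The fatty acid carrier Fabp5 had 1201 ± 39.5 in WT and 585 ± 29.96, 732 ± 27.2 and 387 ± 59.2 in ACLY KO, ACSS2 KO and DKO1.

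ACLY loss can be read in 2 comparisons that share no library, ACLY KO vs WT and DKO1 vs ACSS2 KO. They do share lineages, because DKO1 was made from the ACLY KO cells and ACSS2 KO from WT. Each thus sets the same ACLY KO lineage against the WT lineage, whereas the comparisons for ACSS2 loss hold 2 separate ACSS2 clones. The counts for the 2 losses are therefore not like for like. There were 11 members called in the same direction in both comparisons of ACLY loss, where 31.6% of all genes tested were (15.0% higher, 16.7% lower). The 6 that were higher are Nr1d1, Rorb, Nr1h4, Vdr, Ppargc1b and Nrip1, and the 5 that were lower are Rxrb, Nr2c2, Nr2f2, Esrra and Pprc1. Another 4, Esrrg among them, were called in opposite directions. Thra, Esrrg and Ppargc1a were higher in ACLY KO than in WT but lower in DKO1 than in ACSS2 KO, and Pparg was the reverse. ACSS2 loss, read in ACSS2 KO vs WT and DKO1 vs ACLY KO, gave 1 member in the same direction in both, Vdr as higher and none as lower (5.52% of all genes tested, 2.90% higher and 2.63% lower), and 3 in opposite directions, since Rora, Esrra and Ppargc1a were higher in ACSS2 KO than in WT but lower in DKO1 than in ACLY KO.

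**Figure D4:**
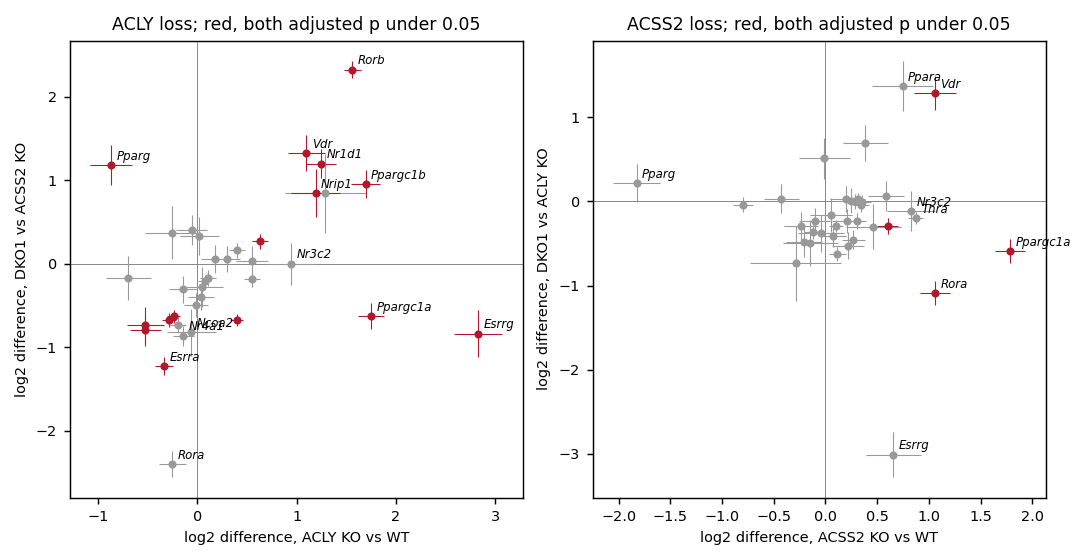
Log2 difference of the 36 tested members for loss of ACLY (left; ACLY KO vs WT against DKO1 vs ACSS2 KO) and of ACSS2 (right; ACSS2 KO vs WT against DKO1 vs ACLY KO), with SE bars and red points where both differences had an adjusted p under 0.05. Rorb lies at 1.56 and 2.32 on the left, and Vdr at 1.06 and 1.29 on the right.

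ACSS2 loss was also compared between the backgrounds by subtracting ACSS2 KO vs WT from DKO1 vs ACLY KO, an interaction term. This difference was called for 14 of the 36 members, 2 positive and 12 negative, with a median of −0.36 over the members. The median was −0.215 without DKO1 replicate 4, with 3 positive and 13 negative, and −0.235 after the correction for transcript length. Without Esrrg 13 members were called. Of all genes tested 27.1% were called (12.0% positive, 15.1% negative). At the stricter limit 4 members were called, or 3 without Esrrg, and 4.61% of all genes. Apart from Esrrg (−3.67, with no test), the largest negative values were those of Ppargc1a (−2.38 ± 0.203, adjusted p = 3.0e-06) and Rora (−2.15 ± 0.203, adjusted p = 7.3e-06), followed by Thra (−1.07 ± 0.101, adjusted p = 7.0e-06). Pparg (2.04 ± 0.32, adjusted p = 4.4e-04) and Rorb (0.76 ± 0.13, adjusted p = 9.8e-04) were the positive pair. For Ppargc1a the value was −2.14 (adjusted p = 1.8e-08) without DKO1 replicate 4, and for Rora −2.16 (adjusted p = 8.5e-06). Nr1h2 (−0.28, adjusted p = 0.053) and Nr6a1 (0.46, adjusted p = 0.17) became called without that library, at −0.34 (adjusted p = 0.011) and 0.63 (adjusted p = 0.034). Vdr, by contrast, gave 0.23 (adjusted p = 0.58), which does not show that the effects were equal.

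**Figure D5:**
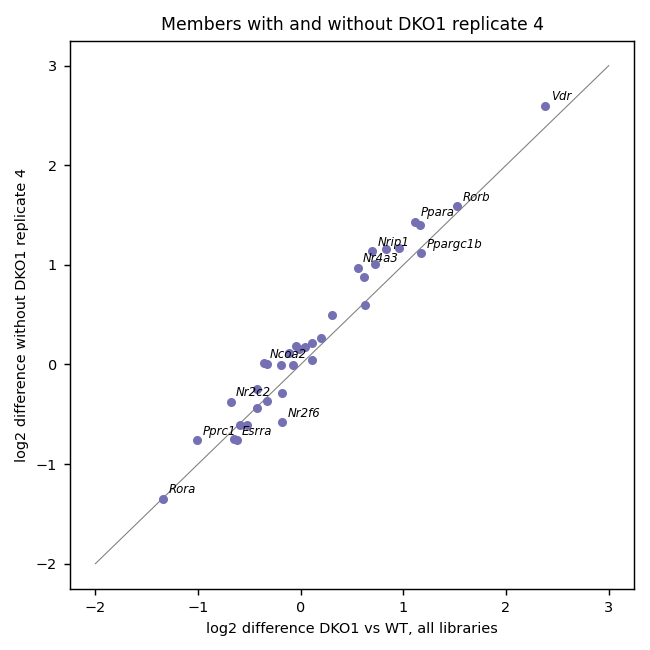
Log2 difference of the 36 tested members in DKO1 vs WT with all libraries (horizontal axis) and without DKO1 replicate 4 (vertical axis), with 1 point per member and a line of equality. Vdr lies at 2.38 and 2.598, Rora on the line at −1.34 and −1.35, and Nr2f6 below the line.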

How the data were processed

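Poly(A) RNA-seq covered 14 libraries of 4 genotypes, grouped by the sample labels. The authors aligned directional single-end reads with STAR to GRCm38 and normalized them with DESeq2 1.0.1. The deposited values are a signal, estimated counts that the authors divided by normalization factors, so they are not whole reads. How reads were assigned to genes, and whether by strand, is not given in the sources used here. Of 24972 symbols, 26 appear as dates and 5487 were at 0 throughout. Implied depths were between 19170375 and 33529721 reads, taking a library's most frequent low value as 1 read. Because values are not reads, no counting interval was computed.

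Differences were tested with limma 3.58.1 in R 4.3.3 with an intensity trend, on log2(value + 1) of genes whose mean reached 10, with a coefficient per group and all 14 libraries sharing the spread. The Benjamini-Hochberg adjustment ran over all 12711 genes tested. The procedure was tested on simulated data. Members described with every value are those with an absolute log2 difference of at least 1 and an adjusted p under 0.05 in any pairwise comparison, plus Ppara, Ppargc1a, Rxra, Esrra, Nr1h2, Ncor1 and Ncoa1, which gave 17; Esr1 and Nr2f6 were added after their values were seen. Up to 3 genes of each other list are named, by adjusted p in DKO1 vs WT, except 3 that are not reported here, and Arntl, Top2b and chromosome medians were added after their values were seen. The members and lists were chosen with earlier results of these data known. Positions and transcript lengths are those of GENCODE vM21 (GRCm38). Alternatives covered the added constant, the filter, normalization, a transcript length correction, the replicate number as a block, call limits and each library left out.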

Additional observations from a re-analysis of the deposited data

Results flagged for a closer look

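Within the 4 WT or the 4 ACLY KO libraries, 9 of the 72 sets of values looked at had a sample far from the other 3, where chance gives about 1 in 20. WT replicate 2 was such a sample for Ppard (598 normalized counts, low), Rara (494, low), Pprc1 (3069, low) and Nr2f6 (1430, high). WT replicate 4 was low for Pparg (33.8). ACLY KO replicate 4 was low for Vdr (53.6), Nr3c1 (3474) and Ncoa1 (387), and ACLY KO replicate 1 stood apart for Rara (564). WT replicate 2 and ACLY KO replicate 4 both had deviations that fell with transcript length (Spearman −0.58 and −0.57 over 12577 genes, a description), and the part of this trend in these values was not tested.

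The effect of ACSS2 loss differed between ACLY KO and WT cells for 14 members, by the interaction term in limma with the adjustment over all genes tested. Esrrg, which passed the filter only through ACLY KO, had to differ and is counted among them. It was positive for Pparg (2.04) and Rorb (0.76). It was negative for Esrrg (−3.67), Ppargc1a (−2.38), Rora (−2.15), Thra (−1.07), Esrra (−0.893), Ppargc1b (−0.742), Rarb (−0.741), Nr4a1 (−0.721), Rara (−0.538), Nr2f2 (−0.392), Rxrb (−0.391) and Nr1h4 (−0.365). Leaving out single libraries ended the call for Nr1h4 (9 libraries, adjusted p up to 0.11) and for Ppargc1b (3 libraries, adjusted p up to 0.071). Each group is a single line or clone, so an interaction and a difference between clones cannot be told apart.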

How the results depend on the processing

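No called difference of a member reversed its direction under any alternative. For the 29 differences over 1 on the log2 scale, 770 of 772 alternatives kept the call. Nr4a3 in ACLY KO vs WT lost it without WT replicate 4 or ACLY KO replicate 4. The 29 were picked for their size and include Esrrg in ACLY KO vs WT and DKO1 vs ACLY KO, which had to differ. Smaller calls, several of which were lost on leaving out a library, are not in this tally. Counts of members called moved as follows. With an absolute log2 difference over 1.5 and adjusted p under 0.01, ACLY KO vs WT had 4, ACSS2 KO vs WT 2 and DKO1 vs WT 2. DKO1 vs ACLY KO had 1, DKO1 vs ACSS2 KO 2 and the interaction 4. At that limit both tests of ACLY loss shared 1 and both tests of ACSS2 loss 0. Leaving out Esrrg, the counts in ACLY KO vs WT, DKO1 vs ACLY KO and the interaction were 3, 0 and 3. With WT replicate 2 and DKO1 replicate 4 both left out, the counts were 22 in ACSS2 KO vs WT, 18 in both tests of ACLY loss and 4 in both tests of ACSS2 loss, and after the transcript length correction the last was 5. Fits of only the groups compared gave 7 in DKO1 vs ACLY KO and 13 in DKO1 vs ACSS2 KO, where fewer libraries estimate the spread. Both tests of ACLY loss shared 6 with equal library totals, which shifted the median of all genes by 0.10 in ACLY KO vs WT and 0.11 in ACSS2 KO vs WT, and 7 at adjusted p under 0.01. The cause was not tested for the other changes. Leaving out single libraries gave 19 to 22, 10 to 16, 18 to 25, 8 to 15 and 17 to 25 members in the 5 comparisons in the order above, 11 to 17 in the interaction, 9 to 13 in both tests of ACLY loss and 1 to 2 in both tests of ACSS2 loss. The lowest DKO1 vs ACLY KO count, 8, was without ACLY KO replicate 1, and the 2 without DKO1 replicate 4.

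The labels do not say whether equal replicate numbers pair the libraries. Among 18 same-number pairs the correlations of deviations lay between −0.431 and 0.447, with 5 over 0.1 and 8 negative. Deviations also went with transcript length, so these correlations cannot decide whether libraries were paired. With the replicate block the counts were 21, 13, 19, 13 and 21 in the 5 comparisons, 13 in the interaction, 9 in both tests of ACLY loss and 1 in both tests of ACSS2 loss. Members near 10 normalized counts are limited by depth: 38 members had a mean of at least 5, and 34 of at least 20.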
